A study of Mus musculus with 6 samples.

Results

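The genes described here encode the proteasome: its subunits, the activators and inhibitor that dock on it, and the chaperones that assemble it. They were chosen by name, as every row whose symbol starts with Psm, a letter from a to g and a number, together with Pomp. The table held 50 such genes among 55401, and 48 of them reached 0.5 FPKM in at least 3 of the 6 libraries, the minimum for testing that 12084 genes passed. FPKM is fragments per kilobase of transcript and per mega-fragment sequenced, a level that can be compared between genes because it is per length. The 2 members below the minimum were Psma8, the testis form of an alpha subunit, at 0.275 to 0.461 FPKM, and Psmb11, the thymus form of a catalytic subunit, which was listed at 0 in every library.

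All 6 samples were mouse bone-marrow-derived macrophages, phagocytes grown for 7 days from marrow of the long bones in medium conditioned by L929 cells. In the group L-OHP, 3 samples received 5 µM L-OHP (oxaliplatin, a platinum drug) for 12 h. In the group L-OHP+FUC, 3 samples were first given 250 µg/ml fucoidan, a sulfated polysaccharide that brown algae make, for 12 h and then L-OHP as in the other group. The question is how drug-exposed macrophages differ with and without fucoidan. Both groups carry the drug, and untreated cells or fucoidan alone were not analysed here. The sources used here give no mouse strain, sex or age. The labels do not say that replicates came from separate animals or cultures, so the p-values reflect the spread among these samples alone, and it may be technical.

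The proteasome is the barrel-shaped protease that degrades proteins tagged with ubiquitin. Its 20S core is a stack of alpha and beta rings, and proteolysis is carried out by the beta subunits Psmb5, Psmb6 and Psmb7. Under interferon these are replaced during assembly by Psmb8, Psmb9 and Psmb10, which gives the immunoproteasome, whose cleavage favours peptides for display on MHC class I. The 19S particle caps the core, binds and unfolds substrates and removes their ubiquitin. Alternative caps are PA28 alpha and beta (Psme1 and Psme2, also interferon-inducible), the nuclear PA28 gamma (Psme3) and PA200 (Psme4). When proteasomes fall short, the transcription factor Nfe2l1 raises the genes of the constitutive particle through antioxidant response elements in their promoters. Macrophages present antigen and carry both kinds of proteasome.

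The promoters of a pair of catalytic counterparts and of a pair of activators are shown because the text below contrasts these genes. The windows are from RefSeq on GRCm38.p6, the assembly of mm10, and run from 250 bases before to 30 bases after the start site, 5′ to 3′ on the gene's strand. They lie at chr14:54617966-54618245 on the minus strand for Psmb5, chr17:34197945-34198224 on the plus strand for Psmb8, chr14:55578244-55578523 on the plus strand for Psme1 and chr11:101315963-101316242 on the plus strand for Psme3. The windows of Psmb8 and Psme1 lie inside the gene spans given below, which start at 34197721 and 55578123. Capitals mark a match, on either strand, to the core of the antioxidant response element (TGACNNNGC), the gamma-activated site (TTCNNNGAA) or the interferon-stimulated response element (GAAA, any 2 bases, GAAA).
Psmb5: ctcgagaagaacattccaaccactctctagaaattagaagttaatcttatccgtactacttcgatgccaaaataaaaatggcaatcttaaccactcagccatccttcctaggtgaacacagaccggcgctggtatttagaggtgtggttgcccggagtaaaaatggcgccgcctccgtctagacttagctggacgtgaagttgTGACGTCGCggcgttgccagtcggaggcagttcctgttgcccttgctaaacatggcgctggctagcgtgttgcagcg
Psmb8: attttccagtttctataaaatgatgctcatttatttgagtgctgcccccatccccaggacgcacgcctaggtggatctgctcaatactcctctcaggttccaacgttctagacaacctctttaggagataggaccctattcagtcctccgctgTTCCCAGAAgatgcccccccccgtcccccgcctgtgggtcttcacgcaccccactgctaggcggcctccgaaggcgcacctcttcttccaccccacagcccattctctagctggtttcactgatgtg
Psme1: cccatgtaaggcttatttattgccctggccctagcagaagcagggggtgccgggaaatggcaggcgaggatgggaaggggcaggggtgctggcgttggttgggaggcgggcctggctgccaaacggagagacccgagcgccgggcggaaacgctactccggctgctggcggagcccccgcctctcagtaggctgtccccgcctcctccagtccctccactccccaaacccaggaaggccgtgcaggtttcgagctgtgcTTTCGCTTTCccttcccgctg
Psme3: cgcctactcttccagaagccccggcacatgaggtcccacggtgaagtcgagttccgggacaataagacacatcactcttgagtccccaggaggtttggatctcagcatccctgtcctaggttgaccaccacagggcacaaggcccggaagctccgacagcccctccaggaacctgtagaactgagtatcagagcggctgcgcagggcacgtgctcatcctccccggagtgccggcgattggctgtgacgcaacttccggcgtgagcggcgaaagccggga
Psmb5 held 1 antioxidant element core, starting at position -47 from the start site, and Psmb8 held 1 gamma-activated site, starting at position -97. Psme1 held 1 interferon-stimulated response element on the minus strand, starting at base 10 after the start site, and the Psme3 window held none of the 3 motifs. Over the full windows, which run to 50 bases after the start, 41 of the 48 tested members matched an entry. The antioxidant core was in 6 of these 41 (14.6%), against 12.4% of all 32851 windows in the table. Its carriers were Psmb5, Psmb6, Psmc6, Psmd12, Psmd9 and Psme4. The interferon-stimulated element was in 5 (12.2%, against 3.44%), namely Psmb3, Psmd4, Psmd9, Psme1 and Psmg4. The gamma-activated site, which reads alike on both strands, was in 3 (7.32%, against 8.30%), namely Psmb8, Psmd2 and Psmg1. No positions of the 3 motifs overlapped in the windows printed. A match is a string of letters and no evidence of binding, and the absence of one concerns only these letters in this window.

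The low-value steps of the table were best matched by 15.65 M to 18.6 M fragments per library (M, the mega prefix). That match was loose, with 35.6% to 41.3% of low values within 0.03 of a whole read. L-OHP libraries held 10711 to 10813 genes at 1 FPKM or more against 9841 to 10188 in L-OHP+FUC. All 8 macrophage markers checked were present at 1 FPKM or more, with a summed level of 12442 to 17874 FPKM in L-OHP and 13492 to 14488 FPKM in L-OHP+FUC. Lyz2 made up most of that sum, at 10005 to 15185 and 10591 to 11655 FPKM. Within the list Csf1r, the receptor of macrophage growth factor, rose by 0.47 and Mertk, an engulfment receptor, fell by 0.74 on the log2 scale (limma adjusted p = 0.0233 and 0.00432). The T cell markers were listed at 0 in every library, those of dendritic cells summed to at most 0.232 FPKM and those of B cells to at most 0.900 FPKM. Neutrophil markers summed to 3.79 to 4.26 FPKM in L-OHP and 5.70 to 6.56 FPKM in L-OHP+FUC, with Ly6g listed at 0 throughout and S100a8 higher (2.41 to 2.89 against 3.72 to 4.71 FPKM, log2 fold change 0.54, limma adjusted p = 0.0162), and fibroblast markers to 4.79 to 11.5 and 7.32 to 7.72 FPKM. The part of other cells and of these marker changes in the results was not tested.

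Across the module, macrophages given fucoidan before the drug showed small changes in both directions. In bulk RNA, fewer cells of a type and less RNA per cell cannot be told apart. In limma's test on log2(FPKM + 1), with Benjamini-Hochberg adjustment over all tested genes at 0.05, 6 of 48 members rose, 5 fell and 37 did not pass. Those that rose were the beta subunits Psmb3 and Psmb4, the 19S subunits Psmc5, Psmd2 and Psmd13, and the activator Psme3. Those that fell were the alpha subunit Psma1, the 19S lid subunit Psmd12, the activators Psme1 and Psme4 and the core assembly factor Pomp. Log2 fold changes of L-OHP+FUC relative to L-OHP, on this scale, ran from -0.70 for Psme2b to 0.61 for Psmb5, neither of which passed. Among all tested genes 7.67% passed as higher and 19.3% as lower. The 6 of 48 members lie above the first share and the 5 of 48 below the second, and these differences were not tested. The median log2 fold change was 0.03 over the 48 members and -0.10 over all tested genes. No member was marked significant in the authors' deposited table, where that mark needs a fold of at least 2.

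Which members passed depended on scaling and on single libraries. After rescaling each library to its median ratio, 12 members passed as higher and none as lower, against a background of 13.1% higher and 13.9% lower. At an unadjusted p under 0.05 by limma, 5 were lower in that fit (background 21.8%). After each library was corrected for the GC content and length of transcripts, 10 were higher and 3 lower (background 11.5% and 11.9%). This correction moved the median of all tested genes from -0.10 to 0.01 and that of the members from 0.03 to 0.17. Median ratio rescaling moved the median of all tested genes to -0.01 and quantile normalization moved it to 0.03, with 7 members higher and 5 lower (background 13.0% and 11.2%). The slope of each library's deviations on GC content was -0.0195 to -0.000251 log2 units per percent in L-OHP and 0.000192 to 0.0211 in L-OHP+FUC. Median GC content was 51.4% in the members that rose, 47.9% in those that fell and 49.5% in all tested genes. Without L-OHP+FUC replicate 1, 1 member was higher and none lower (background 2.54% and 7.59%), and the same counts came without L-OHP+FUC replicate 2 (2.2% and 6.91%). Without L-OHP replicate 1, 2 were higher and none lower (3.09% and 8.52%). At an unadjusted p under 0.05 by limma, 8, 6 and 10 members were higher in these 3 fits (background 9.81%, 9.61% and 10.5%). In each of them 5 were lower (background 22.6%, 23% and 24%). With all 6 libraries, 12 were higher and 5 lower at that level (background 13.3% and 28.5%). Without L-OHP replicate 2 the counts were 6 and 5 (9.28% and 18.7%), without L-OHP replicate 3 they were 2 and 5 (5.09% and 13.0%), and without L-OHP+FUC replicate 3 they were 3 and 3 (5.21% and 17.3%). A q-value under 0.05 was given to 11 members in the authors' deposited table, of which 10 had a ratio above 1 (background 9.93% of the genes tested) and 1, Psme1, a ratio below 1 (background 12.9%). Psme3 was the sole member that passed in all 15 alternative fits at the 0.05 threshold, and none of the 11 members changed sign in any of them. Other filters, moderation without trend and the replicate block leave a gene's fold change as it is, so its sign could not change there. The block with the GC and length correction likewise repeats the fold change of the correction alone. In addition, the 11 members had groups without overlap, so another pseudocount or leaving out 1 library could not turn their sign. That left median ratio rescaling, quantile normalization and the GC and length correction as the alternatives that could. Overlaps with other annotated genes are a further limit, since the use of strand is not given. Of the 11 members that passed, Psma1, Psmb3, Psmb4, Psmd2 and Psme3 overlap no other annotated gene, and Psmc5, Psmd12, Psmd13, Psme1, Psme4 and Pomp each overlap at least 1.

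**Figure D1:**
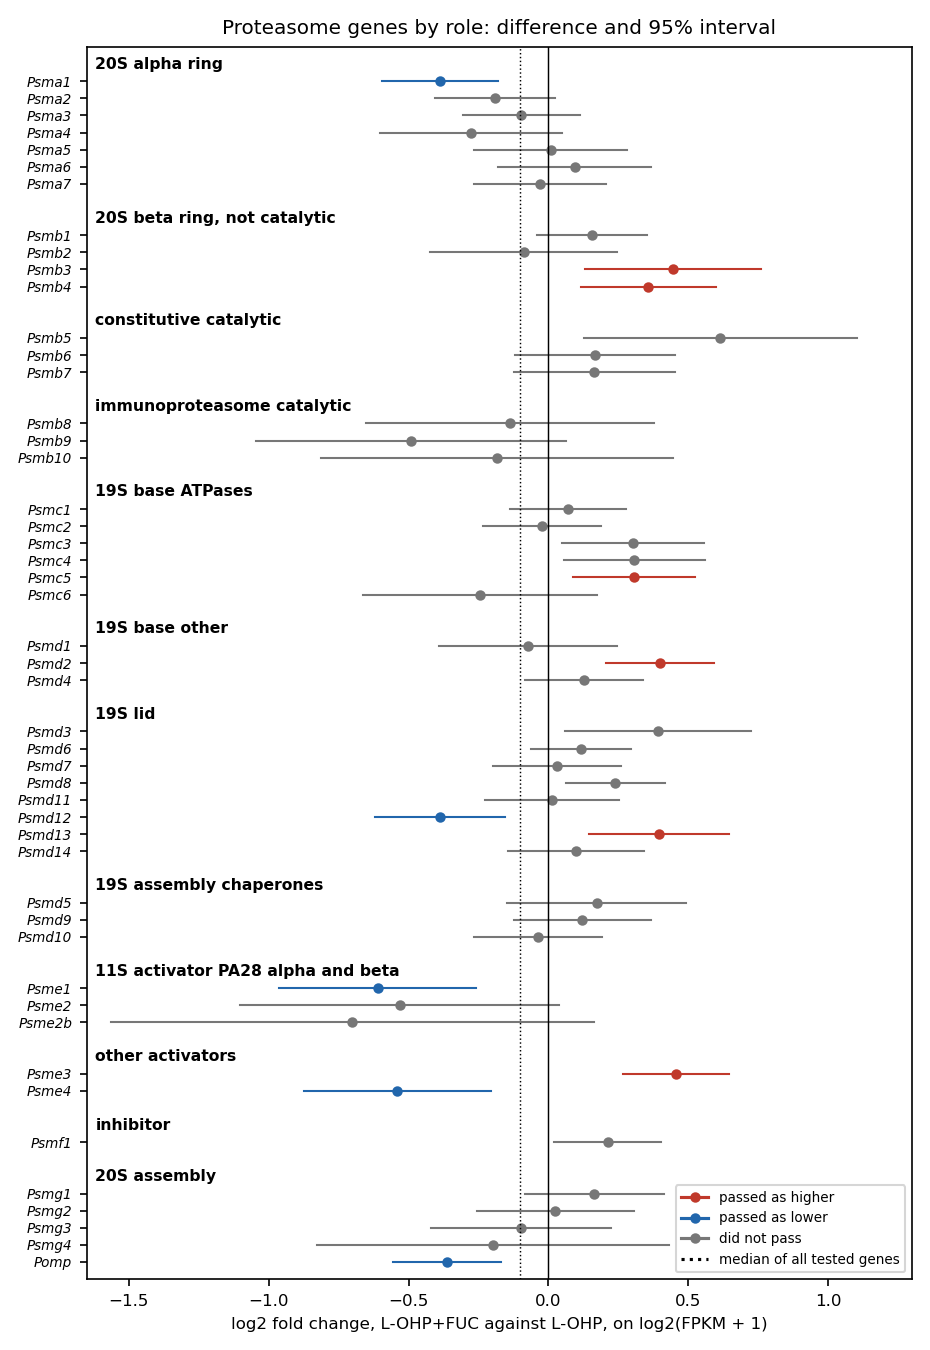
Log2 fold change of each of the 48 tested proteasome genes, L-OHP+FUC against L-OHP on log2(FPKM + 1), grouped by role, with its 95% interval from limma (bars). Red and blue points are the 6 members that passed as higher and the 5 that passed as lower, grey points did not pass, and the dotted line is the median of all tested genes, -0.10.

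The alpha ring forms the gate of the core. Of its 7 members none rose, 1 fell and 6 did not pass (background 7.67% higher and 19.3% lower). The median log2 fold change was -0.10. Psma1 stood at 38.7, 40.5 and 36.9 FPKM in replicates 1 to 3 of L-OHP against 27.3, 29.5 and 31.2 FPKM in those of L-OHP+FUC. All 3 L-OHP+FUC libraries were below all 3 L-OHP libraries, and Psma1 fell by 0.39 on the log2 scale (SE 0.09, limma adjusted p = 0.0211). With GC and length corrected the log2 fold change of Psma1 was -0.15, without a call (adjusted p = 0.189). It had no call after median ratio rescaling either (0.0598), nor without L-OHP replicate 1 (0.0684) or L-OHP+FUC replicates 1 (0.0775) or 2 (0.0798). Psma2 was also lower in every L-OHP+FUC library, at 23.4 to 25.1 against 25.9 to 30.6 FPKM, without passing (adjusted p = 0.155), and had a log2 fold change of 0.10 after the correction. Psma3, Psma4, Psma5, Psma6 and Psma7 overlapped between groups, with log2 fold changes from -0.28 for Psma4 to 0.09 for Psma6. Psma4 passed as lower without L-OHP replicate 2, its lowest library of that group (log2 fold change -0.41, adjusted p = 0.0291). Within the ring the levels spanned from 16.3 ± 0.627 FPKM for Psma3 to 99.2 ± 4.83 FPKM for Psma6 in L-OHP+FUC (SD, n = 3), although the ring holds 1 copy of each subunit.

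The median log2 fold change of the 4 beta ring subunits that are not catalytic was 0.26. Of these 4, 2 rose, none fell and 2 did not pass (background 7.67% higher and 19.3% lower). Psmb4 stood at 57.9, 58.8 and 49.2 FPKM in L-OHP against 74.2, 72.0 and 66.7 FPKM in L-OHP+FUC. Each L-OHP+FUC library lay above each L-OHP library, and the log2 fold change was 0.36 (SE 0.10, limma adjusted p = 0.0415). Psmb3 stood at 29.9, 33.7 and 24.1 FPKM in L-OHP against 42.6, 39.3 and 37.5 FPKM in L-OHP+FUC, again without overlap (log2 fold change 0.44, SE 0.13, limma adjusted p = 0.0477). Psmb1 was likewise higher in each L-OHP+FUC library, at 19.2 to 21.3 against 17.7 to 19.1 FPKM, but did not pass (adjusted p = 0.197), and Psmb2 overlapped (log2 fold change -0.09). Psmb3 and Psmb4 passed after median ratio rescaling and after the GC and length correction. Neither was called with any of 5 libraries left out, namely L-OHP replicates 1 (limma adjusted p = 0.104 for Psmb3 and 0.0842 for Psmb4) and 3 (0.0854 and 0.0866) and L-OHP+FUC replicates 1 (0.145 and 0.131), 2 (0.124 and 0.134) and 3 (0.0752 and 0.0597).

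Among the constitutive catalytic subunits, none of 3 passed limma's test, and 1 was higher at an unadjusted p under 0.05 (background 13.3%). Psmb5, the chymotrypsin-like subunit (chromosome 14, 54614119 to 54618022, GRCm38), stood at 109, 166 and 94.0 FPKM in L-OHP against 196, 187 and 169 FPKM in L-OHP+FUC. The groups did not overlap, but L-OHP replicate 2 lay just below the lowest L-OHP+FUC library and well above the other two of its group. The log2 fold change was 0.61 (SE 0.21, 95% interval 0.13 to 1.10, limma adjusted p = 0.0667), the highest of all members. With L-OHP replicate 2 left out it passed (log2 fold change 0.85, adjusted p = 0.00976), as it did after median ratio rescaling (0.74, 0.0418) and after the GC and length correction (0.62, 0.0387). Psmb6, the caspase-like subunit, stood at 98.8 ± 12.5 and 110.5 ± 8.22 FPKM, and Psmb7, the trypsin-like subunit, at 22.6 ± 3.62 and 25.2 ± 0.270 FPKM (SD, n = 3; limma adjusted p = 0.335 and 0.341).

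None of the 3 immunoproteasome catalytic subunits passed limma's test, and none had an unadjusted p under 0.05 (background 13.3% higher and 28.5% lower). Psmb8, which takes the place of Psmb5 (chromosome 17, 34197721 to 34201454), stood at 74.5, 81.2 and 46.9 FPKM in L-OHP against 69.9, 53.9 and 56.2 FPKM in L-OHP+FUC. The L-OHP libraries spanned the whole range, since replicate 3 was lower than every L-OHP+FUC library. Psmb10, which takes the place of Psmb7 (chromosome 8, 105935735 to 105938444), showed the same order, at 128, 149 and 71.6 against 112, 89.4 and 92.4 FPKM. Psmb9, which takes the place of Psmb6 (chromosome 17, 34181987 to 34187764), stood at 19.3, 24.8 and 13.0 against 15.6, 11.1 and 12.1 FPKM. The log2 fold changes were -0.14, -0.18 and -0.49 for Psmb8, Psmb10 and Psmb9 (95% intervals -0.65 to 0.38, -0.81 to 0.45 and -1.05 to 0.06; limma adjusted p = 0.663, 0.636 and 0.157). Without L-OHP replicate 3 Psmb9 passed as lower (log2 fold change -0.73, adjusted p = 0.0411). The sign of Psmb8 and Psmb10 turned without L-OHP replicate 2, to 0.012 and 0.028. Psmb9 overlaps Tap1 on the opposite strand, and without knowledge of strand in the counting their reads cannot be told apart there. Psmb8 and Psmb9 lie in the class II region of the MHC beside Tap1 and Tap2, which carry their peptides into the endoplasmic reticulum.

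**Figure D2:**
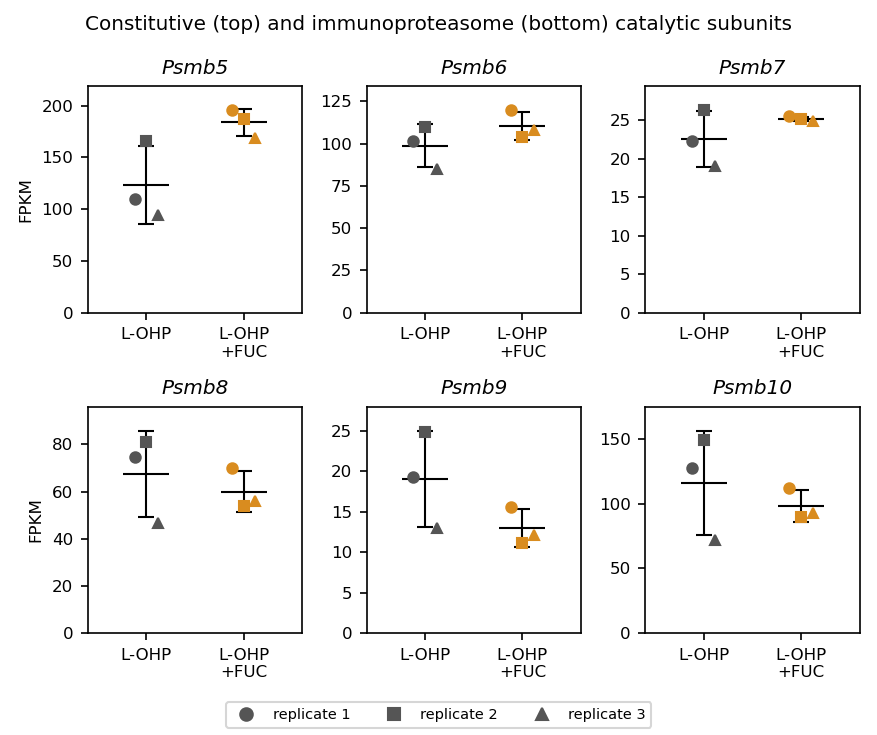
FPKM of the 3 constitutive catalytic subunits (top) and of the immunoproteasome subunit that replaces each (bottom) in every library, with mean and SD as bars (n = 3) and the replicate number as the symbol. Psmb5 is at 169 FPKM or more in the L-OHP+FUC libraries, and within the L-OHP group Psmb8, Psmb9 and Psmb10 are lowest in replicate 3 and highest in replicate 2.

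Set against each other within a library, which removes the library's scaling, the immunoproteasome subunits had lower mean ratios to their counterparts in L-OHP+FUC, in a design too small to pass a test. The ratio of Psmb8 to Psmb5 FPKM was 0.681, 0.490 and 0.499 in L-OHP and 0.358, 0.289 and 0.332 in L-OHP+FUC. All 3 ratios with fucoidan were below all 3 without, with a log2 difference of -0.76 (two-sided exact permutation p = 0.1, as low as 3 against 3 can go, and 0.15 adjusted over the 3 ratios). The ratio of Psmb9 to Psmb6 was 0.191, 0.226 and 0.152 in L-OHP and 0.130, 0.107 and 0.112 in L-OHP+FUC, also without overlap (log2 difference -0.69, exact permutation p = 0.1, adjusted 0.15). The ratio of Psmb10 to Psmb7 was 5.72, 5.67 and 3.76 in L-OHP and 4.40, 3.55 and 3.71 in L-OHP+FUC. The third ratio overlapped, since L-OHP replicate 3 lay among the L-OHP+FUC libraries (log2 difference -0.36, exact permutation p = 0.2, adjusted 0.2). Psmb10 was the single immunoproteasome subunit with more mRNA per length than its counterpart, in both groups. With 3 libraries a group the exact permutation test cannot pass 0.05 for any of these ratios. In the Psmb8 ratio the denominator had the larger log2 fold change, 0.61 for Psmb5 against -0.14 for Psmb8, and neither passed on its own.

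**Figure D3:**
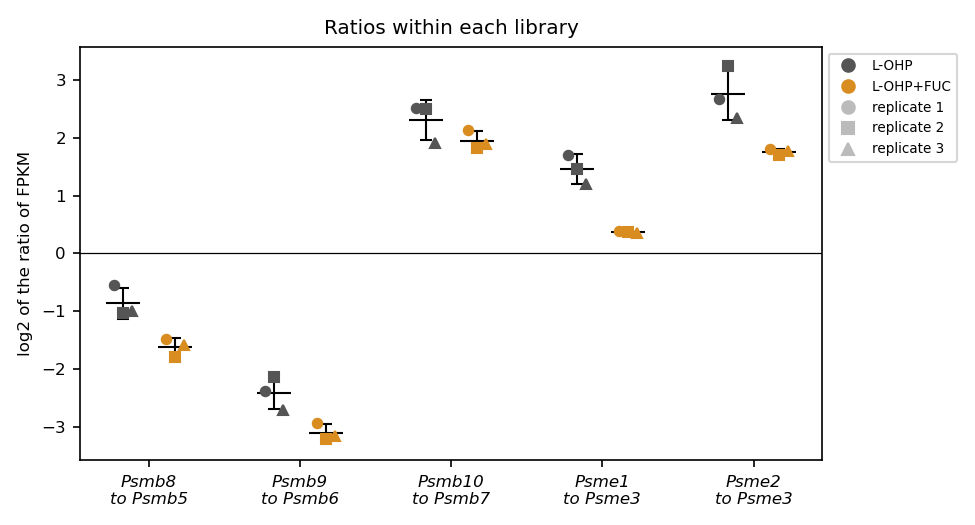
Log2 of the ratio of FPKM of 2 genes in each library, with mean and SD (bars, n = 3), for the 3 catalytic pairs and for Psme1 and Psme2 over Psme3. L-OHP (grey) and L-OHP+FUC (orange) do not overlap for any pair except Psmb10 to Psmb7. For Psme1 to Psme3 this follows from the separation of each gene alone.

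The activators split. Psme3, the PA28 gamma cap that works in the nucleus without ubiquitin (chromosome 11, 101316213 to 101323537), stood at 30.2, 31.4 and 29.2 FPKM in L-OHP against 44.0, 40.4 and 41.3 FPKM in L-OHP+FUC. The groups were tight and far apart, with a log2 fold change of 0.46 (SE 0.08, limma adjusted p = 0.0115), and the adjusted p over the alternatives was 0.00826 to 0.0472. Psme1, which encodes PA28 alpha (chromosome 14, 55578123 to 55581529), stood at 99.0, 86.9 and 67.1 FPKM in L-OHP against 57.7, 52.1 and 53.0 FPKM in L-OHP+FUC. It fell by 0.61 on the log2 scale (SE 0.15, limma adjusted p = 0.0265), and by 0.74 after the GC and length correction (adjusted p = 0.0122). Its call was lost after median ratio rescaling (0.0576), without L-OHP replicates 1 (0.0721) or 2 (0.0501), and without L-OHP+FUC replicates 1 (0.0681), 2 (0.0914) or 3 (0.0657).

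Psme2, the PA28 beta partner of Psme1 in the same ring, lies close by on chromosome 14 (55587441 to 55591113). It stood at 194, 299 and 149 FPKM in L-OHP against 154, 132 and 141 FPKM in L-OHP+FUC, so L-OHP replicate 3 lay among the L-OHP+FUC values (log2 fold change -0.53, SE 0.24, limma adjusted p = 0.141). Without that replicate it passed as lower (log2 fold change -0.76, adjusted p = 0.0481). Psme2b is annotated as a gene of 837 bases on chromosome 11 (48945354 to 48946190). Its transcript has the same length and so no intron, and the gene overlaps other annotated genes. It stood at 178, 364 and 124 FPKM in L-OHP against 143, 114 and 113 FPKM in L-OHP+FUC, between 0.807 and 1.22 times the Psme2 level. Its name marks it as a copy of Psme2, so the counting may have divided reads between them, and Psme2b overlaps 9930111J21Rik1 and Gm12185 on the same strand. The levels of Psme2 and Psme2b are uncertain for that reason.

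The ratio of Psme1 to Psme3, chosen after its values were seen and so given without a test, was 3.28, 2.76 and 2.30 in L-OHP and 1.31, 1.29 and 1.28 in L-OHP+FUC. The ratio of Psme2 to Psme3 was 6.42, 9.52 and 5.11 in L-OHP and 3.49, 3.25 and 3.40 in L-OHP+FUC. The groups did not overlap in either ratio, and both ratios varied little among the L-OHP+FUC libraries. For Psme1 to Psme3 an overlap was not possible, since Psme1 was lower and Psme3 higher in every L-OHP+FUC library. Psme4, the large PA200 cap (chromosome 11, 30771726 to 30880361), stood at 15.4, 14.4 and 15.3 FPKM in L-OHP against 8.52, 9.34 and 12.6 FPKM in L-OHP+FUC. It fell by 0.54 on the log2 scale (SE 0.14, limma adjusted p = 0.0331), but by 0.23 and without a call after the GC and length correction (adjusted p = 0.116). Its call was also lost after median ratio rescaling (0.0532), without L-OHP replicates 1 (0.0944) or 3 (0.0793) and without L-OHP+FUC replicates 1 (0.0997) or 2 (0.110). Psmf1, the inhibitor PI31, stood at 4.71 to 4.83 FPKM in L-OHP against 5.41 to 5.89 FPKM in L-OHP+FUC without overlap, and did not pass (log2 fold change 0.21, adjusted p = 0.0927). It passed as higher after median ratio rescaling (0.0290), quantile normalization (0.0222) and the GC and length correction (0.0256).

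**Figure D4:**
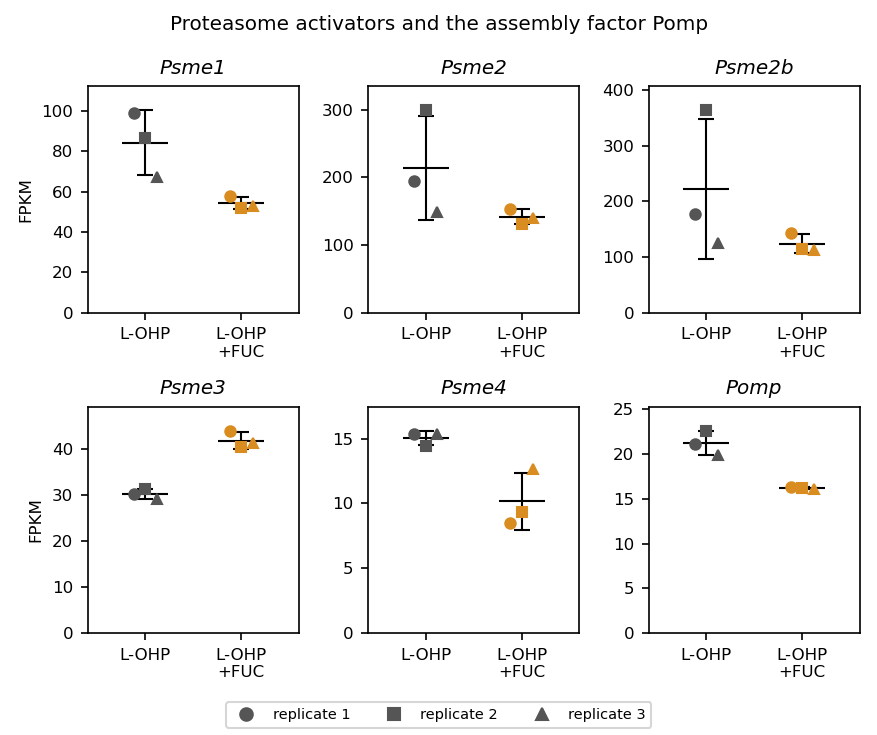
FPKM of the activator genes Psme1, Psme2, Psme2b, Psme3 and Psme4 and of the assembly factor Pomp in every library, with mean and SD as bars (n = 3) and the replicate number as the symbol. Psme3 is higher in every L-OHP+FUC library, Psme1, Psme4 and Pomp are lower in every one, and Psme2 and Psme2b overlap.

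In the 19S particle, 3 of 17 subunits in the list rose, 1 fell and 13 did not pass (background 7.67% higher and 19.3% lower). The median log2 fold change was 0.12. Psmd2, the large base subunit that receives ubiquitin-carrying proteins (chromosome 16, 20651652 to 20663414), stood at 57.3, 52.4 and 51.4 FPKM in L-OHP against 70.3, 70.8 and 71.8 FPKM in L-OHP+FUC. Its groups were well separated (log2 fold change 0.40, SE 0.08, limma adjusted p = 0.0166), and without L-OHP+FUC replicate 1 or 2 the adjusted p was 0.0585 or 0.0706. Psmc5, an ATPase of the unfolding ring, stood at 64.0, 58.8 and 53.9 FPKM in L-OHP against 74.4, 73.3 and 71.0 FPKM in L-OHP+FUC. Its adjusted p of 0.0483 (log2 fold change 0.31, SE 0.09) was the closest to the threshold among the calls, and leaving out any 1 library took it to between 0.0636 and 0.148. The ATPases Psmc3 and Psmc4 were also higher in every L-OHP+FUC library, with log2 fold changes of 0.30 and 0.31 that did not pass (adjusted p = 0.0777 and 0.0721). Psmc1 and Psmc2 differed little (0.07 and -0.02), and Psmc6 overlapped widely at 17.7 to 25.8 against 16.2 to 22.2 FPKM.

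Among the 8 lid subunits 1 rose, 1 fell and 6 did not pass (background 7.67% higher and 19.3% lower). Psmd13 stood at 21.7, 18.2 and 18.9 FPKM in L-OHP against 28.6, 25.4 and 24.2 FPKM in L-OHP+FUC (log2 fold change 0.39, SE 0.11, limma adjusted p = 0.0350). Psmd12 went the opposite way, from 27.4, 27.5 and 26.8 FPKM to 18.3, 22.7 and 21.1 FPKM (log2 fold change -0.39, SE 0.10, limma adjusted p = 0.0299). Both kept their calls after the GC and length correction (adjusted p = 0.0430 and 0.0468), and Psmd12 lost its call after median ratio rescaling (0.0808). Of the 6 fits that left out 1 library, Psmd12 passed in the one without L-OHP replicate 2 (0.0480) and was at 0.0579 to 0.0875 in the others. Psmd13 passed in the one without L-OHP+FUC replicate 3 (0.0472) and was at 0.0502 to 0.112 in the others. Psmd8 had narrow groups, at 76.4 to 78.7 and 90.6 to 92.4 FPKM, and just missed the threshold (log2 fold change 0.24, adjusted p = 0.0550). Psmd3 was higher in every L-OHP+FUC library without passing (0.39, adjusted p = 0.0800), as was Psmd6 (0.12, adjusted p = 0.288). Psmd14, the deubiquitinase that strips the ubiquitin chain, stood at 25.2 ± 2.33 and 27.0 ± 2.09 FPKM (SD, n = 3; adjusted p = 0.495). It passed as higher after the GC and length correction (log2 fold change 0.31, adjusted p = 0.0394), as did Psmd6 (0.25, 0.0395). Psmd7 and Psmd11 had log2 fold changes of 0.03 and 0.01, and in the base Psmd1 and the ubiquitin receptor Psmd4 had -0.07 and 0.13.

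Of the 5 assembly factors of the core, none rose, 1 fell and 4 did not pass (background 7.67% higher and 19.3% lower). Pomp, which brings the beta subunits onto the alpha ring and is degraded by the finished core (chromosome 5, 147860461 to 147876456), stood at 21.1, 22.6 and 19.8 FPKM in L-OHP against 16.3, 16.2 and 16.1 FPKM in L-OHP+FUC. It fell by 0.36 on the log2 scale (SE 0.08, limma adjusted p = 0.0212) and did not overlap between groups, with an SD of 0.110 FPKM among the L-OHP+FUC libraries (n = 3). After the GC and length correction it kept its call (log2 fold change -0.28, adjusted p = 0.0456) and after median ratio rescaling it lost it (0.0792). Its call was also lost without L-OHP replicate 1 (0.0688) or L-OHP+FUC replicates 1 (0.0692) or 2 (0.0825), and was at 0.0499 without L-OHP+FUC replicate 3. The chaperones of the alpha ring Psmg1, Psmg2, Psmg3 and Psmg4 did not pass, at group means of 2.90 to 16.6 FPKM and log2 fold changes of -0.20 to 0.16. The 19S chaperones Psmd5, Psmd9 and Psmd10 did not pass either (0.17, 0.12 and -0.04).

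In the contrast of inducible with constitutive genes, the interferon-inducible Psmb8, Psmb9, Psmb10, Psme1 and Psme2 all had negative log2 fold changes. Their median was -0.49, against -0.10 over all tested genes. Of these 5 genes 1 passed as lower and none as higher (background 19.3% and 7.67%). None other had an unadjusted p under 0.05 by limma. Of the 31 constitutive subunits of the 20S and 19S particles, 21 had positive and 10 negative log2 fold changes, with a median of 0.10. Of these 31, 5 rose, 2 fell and 24 did not pass (background 7.67% higher and 19.3% lower). In 13 of the 31 every L-OHP+FUC library was above every L-OHP library and in 3 every one was below, against 16.1% and 30.9% of all tested genes. After the GC and length correction the medians were -0.46 for the 5 genes and 0.21 for the 31. Median ratio rescaling gave -0.01 for Psmb8, -0.06 for Psmb10, -0.37 for Psmb9, -0.41 for Psme2 and -0.48 for Psme1, with no call. The mean deviation of the 5 genes from their own means was 0.32, 0.54 and -0.27 log2 units in replicates 1 to 3 of L-OHP against -0.02, -0.32 and -0.25 in those of L-OHP+FUC. L-OHP replicate 3 lay within the range of the fucoidan group. For the 31 constitutive subunits the same means were 0.02, -0.02 and -0.15 in L-OHP and 0.04, 0.06 and 0.05 in L-OHP+FUC, again with L-OHP replicate 3 lowest.

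Irf1, an interferon-response factor that acts on these promoters, did not pass, at 82.4, 46.9 and 58.6 FPKM in L-OHP against 54.6, 50.3 and 55.0 FPKM in L-OHP+FUC (log2 fold change -0.19, limma adjusted p = 0.490). Tap1 stood at 49.1, 42.1 and 32.1 against 40.7, 33.0 and 33.4 FPKM (-0.18, adjusted p = 0.445). Tap2 stood at 51.6, 76.3 and 37.9 against 53.0, 44.3 and 42.9 FPKM (-0.19, adjusted p = 0.594). For both transporter genes L-OHP replicate 3 was the lowest of all 6 libraries. Its part in the immunoproteasome values was not tested. In the list of 13 interferon-regulated and class I peptide genes none rose, 4 fell and 9 did not pass by limma (background 7.67% higher and 19.3% lower). None was higher at an unadjusted p under 0.05 by limma (background 13.3%), and the median log2 fold change was -0.27. Those with the smallest p were Nlrc5, the transactivator of class I genes (log2 fold change -0.98, adjusted p = 0.00688), B2m, the light chain of class I molecules (-1.17, adjusted p = 0.00763), and Erap1, which trims peptides after the proteasome (-0.72, adjusted p = 0.0125). Erap1 was at 0.0502 without L-OHP+FUC replicate 1. Correction for GC content and length left all 3 as lower, at log2 fold changes of -0.85 for Nlrc5, -0.76 for B2m and -0.37 for Erap1 (limma adjusted p = 0.00909, 0.0182 and 0.0434). B2m did not pass with no filter on low values (0.0746), and with the replicate block added to that correction neither B2m (0.0554) nor Erap1 (0.109) passed.

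Among 28 partners and regulators of the proteasome, 27 were tested, of which 6 rose, 3 fell and 18 did not pass (background 7.67% higher and 19.3% lower). The median log2 fold change was 0.14. Akirin2, which carries proteasomes into the nucleus, rose, with 14.4 ± 1.31 FPKM in L-OHP and 19.9 ± 0.305 FPKM in L-OHP+FUC (SD, n = 3, limma adjusted p = 0.0166, log2 fold change 0.44). Vcp, the segregase that extracts ubiquitinated proteins for degradation, stood at 101, 88.3 and 82.9 FPKM in L-OHP against 118, 124 and 124 FPKM in L-OHP+FUC (0.43, adjusted p = 0.0226). Its cofactor Nploc4 (0.39, adjusted p = 0.0336) and the shuttle factor Rad23b (0.32, adjusted p = 0.0273) rose as well. Ddi2, the protease that activates Nfe2l1, fell, with 10.3 ± 1.13 FPKM in L-OHP and 6.23 ± 0.217 FPKM in L-OHP+FUC (SD, n = 3, limma adjusted p = 0.00871, log2 fold change -0.64), and by 0.33 after the GC and length correction (adjusted p = 0.0315). Ecpas, a proteasome scaffold, fell by 0.44 (adjusted p = 0.0334), but by 0.12 after the correction, without a call (adjusted p = 0.297). Nfe2l1 stood at 21.04, 31.6 and 21.5 FPKM in L-OHP against 32.2, 39.2 and 30.2 FPKM in L-OHP+FUC, with L-OHP replicate 2 level with the fucoidan group, and did not pass (0.46, adjusted p = 0.0996). Without L-OHP replicate 2 it passed as higher (0.64, adjusted p = 0.0196). Nfe2l2, the NRF2 factor of the antioxidant response, had a log2 fold change of -0.31 (adjusted p = 0.134) and passed as lower without L-OHP replicate 2 (-0.43, 0.0384). With L-OHP+FUC replicate 1 or 2 left out, Akirin2 was at 0.0568 or 0.0695. Vcp was no longer called with L-OHP replicate 3 (0.0531) or L-OHP+FUC replicates 1 (0.0667), 2 (0.0901) or 3 (0.0575) left out. Nploc4 was no longer called with L-OHP replicates 1 (0.106) or 3 (0.0826) or L-OHP+FUC replicates 1 (0.108) or 2 (0.121) left out. Rad23b and Ecpas each kept theirs in 1 of the 6 fits without a library, at 0.0302 without L-OHP replicate 2 and 0.0150 without L-OHP+FUC replicate 3, and Ddi2 kept its call in all 6 (0.0160 to 0.0416).

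**Figure D5:**
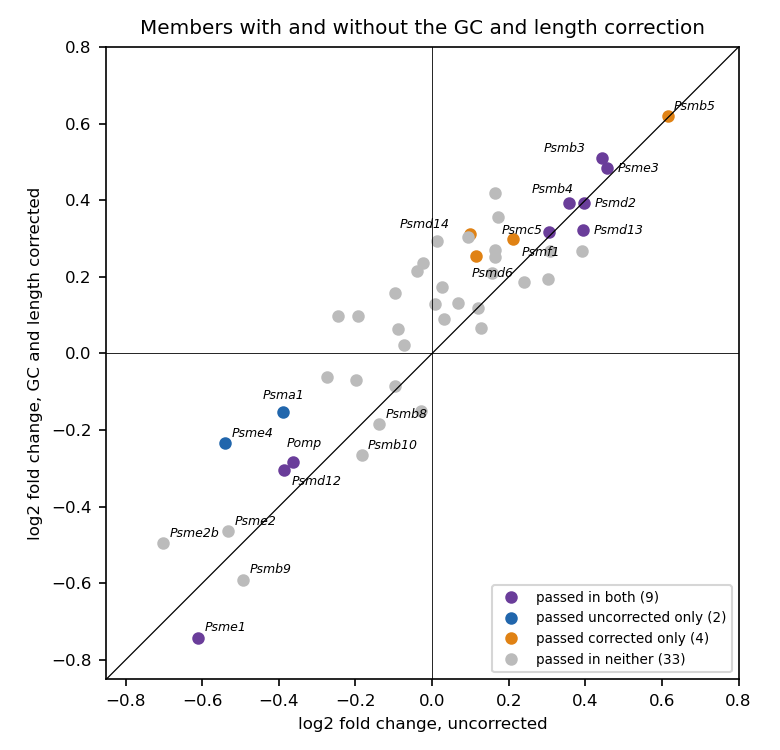
Log2 fold change of the 48 tested members without (horizontal axis) and with (vertical axis) the correction for GC content and transcript length, where the diagonal is equality. The correction kept the call of 9 members, ended that of Psma1 and Psme4 and added those of Psmb5, Psmd6, Psmd14 and Psmf1.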

How the data were processed

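RNA from 6 macrophage samples, 3 in each group, was sequenced after removal of ribosomal RNA. Per the submitters' processing notes the tools were bcl2fastq 2.0, HISAT2, StringTie, DESeq2 and limma on mm10, with no roles given, and the use of strand is not given in the sources used here. Per the file headers, the authors deposited 1 table with FPKM per gene and library, a fold ratio, its log2 value, and p-values and q-values. The deposited ratio equalled that of the group mean FPKM, and 0.0001 stood in place of 0 in the deposited FPKM and was set to 0. The tool behind the deposited p-values is not given.

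Genes that reached 0.5 FPKM in 3 or more libraries were tested with limma 3.58.1 in R 4.3.3 on log2(FPKM + 1), with an intensity trend and group as the only term, and p-values were adjusted over all 12084 of them. A fold change on this scale understates that of low genes. Low FPKM values came out as whole reads within 0.03 in only 35.6% to 41.3% of cases, so reads were not recovered and no count model was used. Ratios of members were tested by exact two-sided permutation. GC content and length were those of the longest transcript of each gene in GENCODE M21, which need not be the one expressed. Positions came from GENCODE M21 as well, and promoters from RefSeq. The fit was tested on simulated data. Alternatives were another pseudocount, other filters, 2 rescalings, a GC and length correction by loess, a replicate block, moderation without trend, a threshold of 0.01 and leaving out each library.

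All members are named in the text. Of the partners the 6 with the smallest p and Nfe2l1 and Nfe2l2 are named, and of the interferon and class I list the 3 with the smallest p and Irf1, Tap1 and Tap2, while 1 further gene of that rule is not reported here. The members and lists were chosen with earlier results of these data known. Of 28 partners, Paaf1 was not analysed here.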

Additional observations from a re-analysis of the deposited data

How the results depend on the processing

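Of the 11 members that passed, calls were kept in 4 (Psmc5) to 15 (Psme3) of 15 alternative fits at the 0.05 threshold. None changed sign, which other filters, moderation without trend and the replicate block could not bring about. Another pseudocount or leaving out 1 library could not do so either, since the groups of these members did not overlap. Against 6 higher and 5 lower, median ratio rescaling gave 12 and 0, the GC and length correction 10 and 3, no filter 2 and 2 (2.26% and 6.12% of all genes), and a threshold of 0.01 gave 0 and 0 (1.37% and 3.91% of all genes; limma, 12 and 5 members against 13.3% and 28.5% of all genes at an unadjusted p under 0.05). Leaving out 1 library gave 1 to 6 higher and 0 to 5 lower. The replicate block gave 2 and 2 (4.58% and 14.6% of all genes), and with the GC and length correction 1 and 1 (5.43% and 6.7%). Same-numbered samples did not deviate together (r = -0.04, -0.07 and 0.08), so the numbers were not taken as pairs. Under the block the exact permutation p of the 3 ratios was 0.25, the smallest that 3 pairs allow. The block does not enter their log2 differences, which are -0.76, -0.69 and -0.36 with or without it. The other alternatives for the ratios were FPKM + 1 in place of FPKM and leaving out 1 library, and all log2 differences stayed negative there. Without 1 library they lay between -0.84 and -0.61, -0.84 and -0.56, and -0.56 and -0.25. For Psmb8 to Psmb5 and Psmb9 to Psmb6 the groups did not overlap, so leaving out 1 library could not turn the sign. No ratio was made from values corrected for GC content and length.

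Genes that did not pass changed sign as follows. With the GC and length correction, with or without the block, log2 fold changes became 0.097 for Psma2, 0.16 for Psma3, 0.064 for Psmb2, 0.24 for Psmc2, 0.098 for Psmc6, 0.023 for Psmd1 and 0.22 for Psmd10. With median ratio rescaling they became 0.024 for Psma3, 0.094 for Psma7, 0.037 for Psmb2, 0.099 for Psmc2, 0.049 for Psmd1 and 0.085 for Psmd10. With quantile normalization they became -0.015 for Psma5 and 0.11 for Psmg3. Without 1 library they ranged from -0.38 to 0.022 for Irf1, -0.060 to 0.13 for Psma5, -0.10 to 0.049 for Psma7, -0.50 to 0.028 for Psmb10, -0.22 to 0.023 for Psmb2, -0.38 to 0.012 for Psmb8, -0.071 to 0.028 for Psmc2, -0.17 to 0.018 for Psmd1. They also ranged from -0.11 to 0.0086 for Psmd10, -0.057 to 0.079 for Psmd11, -0.0098 to 0.10 for Psmd7, -0.067 to 0.11 for Psmg2, -0.22 to 0.014 for Psmg3, -0.41 to 0.13 for Psmg4 and -0.42 to 0.071 for Tap2. The causes were not tested. Depth could be inferred only from the steps of low FPKM values, so no counting error is given.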

Other observations

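Of the 11 members that passed limma's test, the authors' deposited table also gave 7 a q-value under 0.05. These were the 6 that rose and Psme1. The other members that fell had higher q-values there, at 0.211 for Psma1, 0.240 for Psmd12, 0.0547 for Psme4 and 0.247 for Pomp. Over all genes tested, 9.93% had a q-value under 0.05 with a ratio above 1 and 12.9% with a ratio below 1. Psmb5 had a ratio of 1.49 and a q-value of 0.00780 in the authors' deposited table, while limma on the same FPKM values gave an adjusted p of 0.0667. Psma1 had a ratio of 0.759 and a q-value of 0.211 in the authors' deposited table, while limma gave 0.0211. The pseudogene Psma5-ps, which shares sequence with Psma5, stood at 5.86, 8.22 and 4.33 FPKM in L-OHP against 3.79, 4.44 and 5.05 FPKM in L-OHP+FUC. Whether reads of Psma5 were counted there was not tested.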
